A study of Mus musculus with 89 samples.

Results

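Lungs of BALB/c mice were compared with lungs of C57BL/6 mice after air alone, over every gene measured. The comparison rests on 11 of the 89 arrays of the series, 5 from BALB/c and 6 from C57BL/6, and the arrays were chosen by strain and exposure from the labels. Both groups were male mice of 7 to 8 weeks that breathed air for 2 h and were killed 12 h later. The labels name no engineered allele in either group, and neither received ozone or allergen. The labels give the strains without a substrain, supplier or hour of the day. RNA came from the perfused left lobe, taken whole, and was amplified and hybridized to Affymetrix HT Mouse430PM arrays.

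The remaining arrays served as comparisons only. They hold another strain, SP-D-/-, with a disrupted Sftpd gene, a background strain that the labels do not name and 5 arrays in air, and mice of each strain under 5 further exposures. These were ozone (3 ppm for 2 h), and an allergen model in which mice were sensitized on days 0 and 7 with Aspergillus fumigatus (Af), a mould, and challenged through the nose on day 13. Challenged mice were sampled 24 h later with air, 96 h later with ozone, and 168 h later with air or with ozone. Nothing beyond the replicate numbers says that the arrays are separate animals, so p-values measure the spread between arrays, and their small number limits the precision.

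BALB/c and C57BL/6 are inbred strains that are widely used in models of allergic airway disease. They carry different haplotypes of H2, the mouse major histocompatibility complex (MHC), whose class I and class II molecules show peptides to T cells. They also differ in the receptor genes of natural killer (NK) cells and in several families of interferon-inducible genes that have expanded in the mouse. C57BL/6 mice are known to lack a working H2-Ea gene, and the C57BL/6J substrain is known to lack part of Nnt, a mitochondrial enzyme gene.

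Levels are log2 signals, where a difference of 1 is a doubling, and differences are BALB/c minus C57BL/6 with the standard error of the fit. Lung genes were high in both strains: the surfactant protein gene Sftpc averaged 12.72 ± 0.08 in BALB/c and 12.74 ± 0.04 in C57BL/6, and the club cell secretoglobin Scgb1a1 averaged 13.03 ± 0.15 in BALB/c and 13.16 ± 0.20 in C57BL/6 (SD, n = 5 and 6). Sftpd, the gene disrupted in SP-D-/-, averaged 10.09 ± 0.38 in BALB/c and 10.16 ± 0.27 in C57BL/6, a difference of -0.07 ± 0.53 (adjusted p = 0.9998). The 11 arrays correlated pairwise with r = 0.8995 to 0.9882 over the genes tested. The mean of 9 hybridization control probe sets differed by 0.01 (exact two-sided permutation p = 0.978) and the 3' minus 5' beta-actin signal, a sign of RNA quality, by 0.12 (exact p = 0.58). Signal from skeletal muscle genes varied widely between arrays. The mean of 12 such genes was 6.18, 4.54, 8.70, 8.77 and 10.84 on BALB/c replicates 1, 2, 3, 4 and 6, against 8.99 on C57BL/6 replicate 1 and 4.41 to 4.51 on the other 5 C57BL/6 arrays.

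Of 15065 genes tested, 77 differed between the strains at an adjusted p under 0.05 (0.511% of genes), with 36 higher (0.239%) and 41 lower (0.272%) in BALB/c. At an unadjusted p under 0.05 there were 541, which is under the 1 in 20 of genes that chance alone would give. The differences were large where they were called: 73 of the 77 exceeded 2-fold and 25 exceeded 4-fold, while the median absolute difference of all genes was 0.15. Every BALB/c array lay above or below every C57BL/6 array for 72 of the 77, against 613 of all genes (4.07%, with BALB/c above in 1.85% and below in 2.22%). The median difference of all genes was 0.04, with 8532 genes positive and 6533 negative. Genes had to exceed 4.45 on some arrays to be tested, and signals below that are close to background. Among genes lower in BALB/c, 14 had a BALB/c mean below it, and among those higher, 10 had a C57BL/6 mean below it, so the size of these differences is approximate. The spread behind each test was estimated over all 18 groups of the series. A gene that varied more in other groups than in air could therefore fail to pass although its air arrays lay apart. Not passing thus does not show that the strains were alike. A fit of the 11 air arrays alone called 437 genes, 161 higher and 276 lower, and 73 of the 77 were among them.

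**Figure D1:**
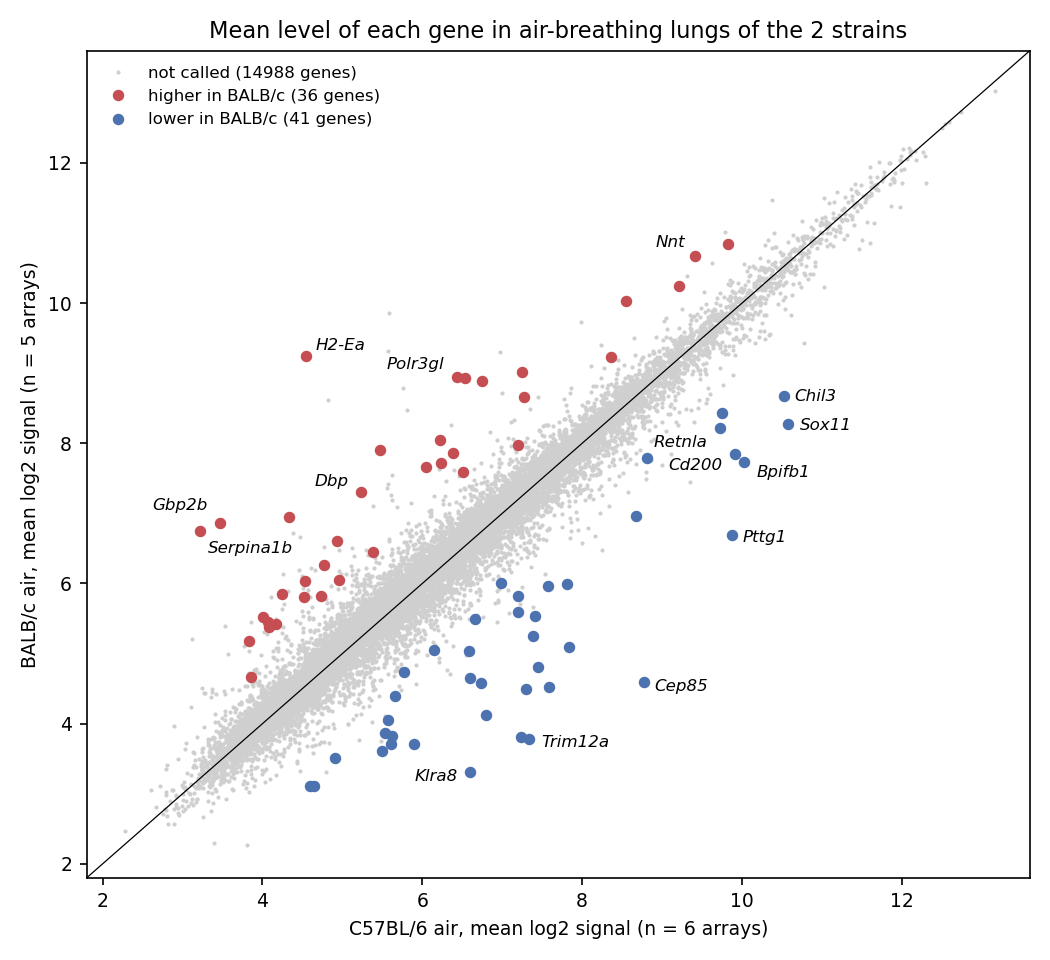
Mean log2 signal of each of the 15065 genes tested in BALB/c air lungs (vertical axis, n = 5 arrays) against C57BL/6 air lungs (horizontal axis, n = 6 arrays), with the 36 genes called higher in BALB/c in red, the 41 called lower in blue and the line of equal levels in black. Most genes lie on the line, H2-Ea lies farthest above it at 9.24 in BALB/c against 4.54 in C57BL/6, and Cep85 farthest below it at 4.59 in BALB/c against 8.78 in C57BL/6.

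With 1 probe set standing for each gene, the largest difference was in H2-Ea, which encodes the alpha chain of the class II molecule H2-E. Its level was 9.12, 9.57, 9.34, 9.12 and 9.05 on the BALB/c arrays, against a lowest of 4.005, a median of 4.59 and a highest of 5.02 on the C57BL/6 arrays. The groups did not overlap, and H2-Ea was 26-fold higher in BALB/c (4.70 ± 0.48, adjusted p = 2.99e-11). A second probe set of the gene gave 6.58 ± 0.66, with 9.41 ± 0.13 in BALB/c and 2.83 ± 0.15 in C57BL/6, while the remaining one lay at 4.17 in BALB/c and 3.82 in C57BL/6 and was not called. RefSeq, whose mouse assembly GRCm38.p6 is of C57BL/6J, annotates H2-Ea as a transcribed pseudogene.

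Higher levels in BALB/c were not seen across class II presentation. Of the 11 class II genes 1 rose and 1 fell, against 0.239% and 0.272% of all genes (medians of -0.31 for the list and 0.04 for all genes), and 10 of the 11 had a negative difference. H2-Ob, the beta chain of H2-O, which restrains peptide loading in B cells, was 3.81, 5.45, 5.87, 5.41 and 4.62 on the BALB/c arrays, against a lowest of 6.34, a median of 6.52 and a highest of 6.87 on the C57BL/6 arrays. It fell by 1.55 ± 0.39 in BALB/c (adjusted p = 0.0309), with no overlap, although the call was lost without any 1 of BALB/c replicates 1 and 6 or C57BL/6 replicates 2, 3 and 4 (adjusted p = 0.0596 to 0.318). H2-Aa and Cd74, the alpha chain of H2-A and the invariant chain, did not overlap either, at 9.26 in BALB/c and 9.91 in C57BL/6 for H2-Aa and 11.14 in BALB/c and 11.65 in C57BL/6 for Cd74, and neither passed (adjusted p = 0.366 and 0.9998). A dim probe set of H2-Aa, tested on its own, was lower at -2.16 ± 0.53, with 3.43 in BALB/c and 5.60 in C57BL/6 (adjusted p = 0.0232 over probe sets). H2-Eb1, the partner chain of H2-Ea, had -0.53 ± 0.37, and Ciita, the class II transactivator, -0.24 ± 0.27, and both overlapped between strains.

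Among 15 genes of class I and peptide loading 1 fell, against 0.272% of all genes, and 0 rose, with a median of -0.45. H2-Q4, a class Ib heavy chain, was 6.55, 7.22, 7.18, 7.03 and 6.82 on the BALB/c arrays, against a lowest of 8.31, a median of 8.62 and a highest of 9.21 on the C57BL/6 arrays. It fell by 1.71 ± 0.43 (adjusted p = 0.0363), and its call was lost without any 1 of BALB/c replicates 1, 2, 3, 4 and 6 or C57BL/6 replicates 2, 3, 4, 5 and 6 (adjusted p = 0.0522 to 0.129). In 8 of the 15 every BALB/c array lay below every C57BL/6 array, against 2.22% of all genes, among them the transactivator Nlrc5 (-1.42 ± 0.46, adjusted p = 0.282) and the immunoproteasome subunit Psmb9 (-0.81 ± 0.32, adjusted p = 0.774). The class I heavy chains are near-identical copies whose probe sets can share signal, and the probe sets of H2-D1 ran in opposite directions. For H2-D1, 2 probe sets were higher in BALB/c by 5.11 ± 0.54 and 4.69 ± 0.48, at 10.07 and 9.80 in BALB/c against 4.96 and 5.10 in C57BL/6. Another was lower by 0.84 (a difference of -0.84 ± 0.20, adjusted p = 0.0139 over probe sets), and the brightest, which stood for the gene, had -0.79 ± 0.30 (adjusted p = 0.666).

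**Figure D2:**
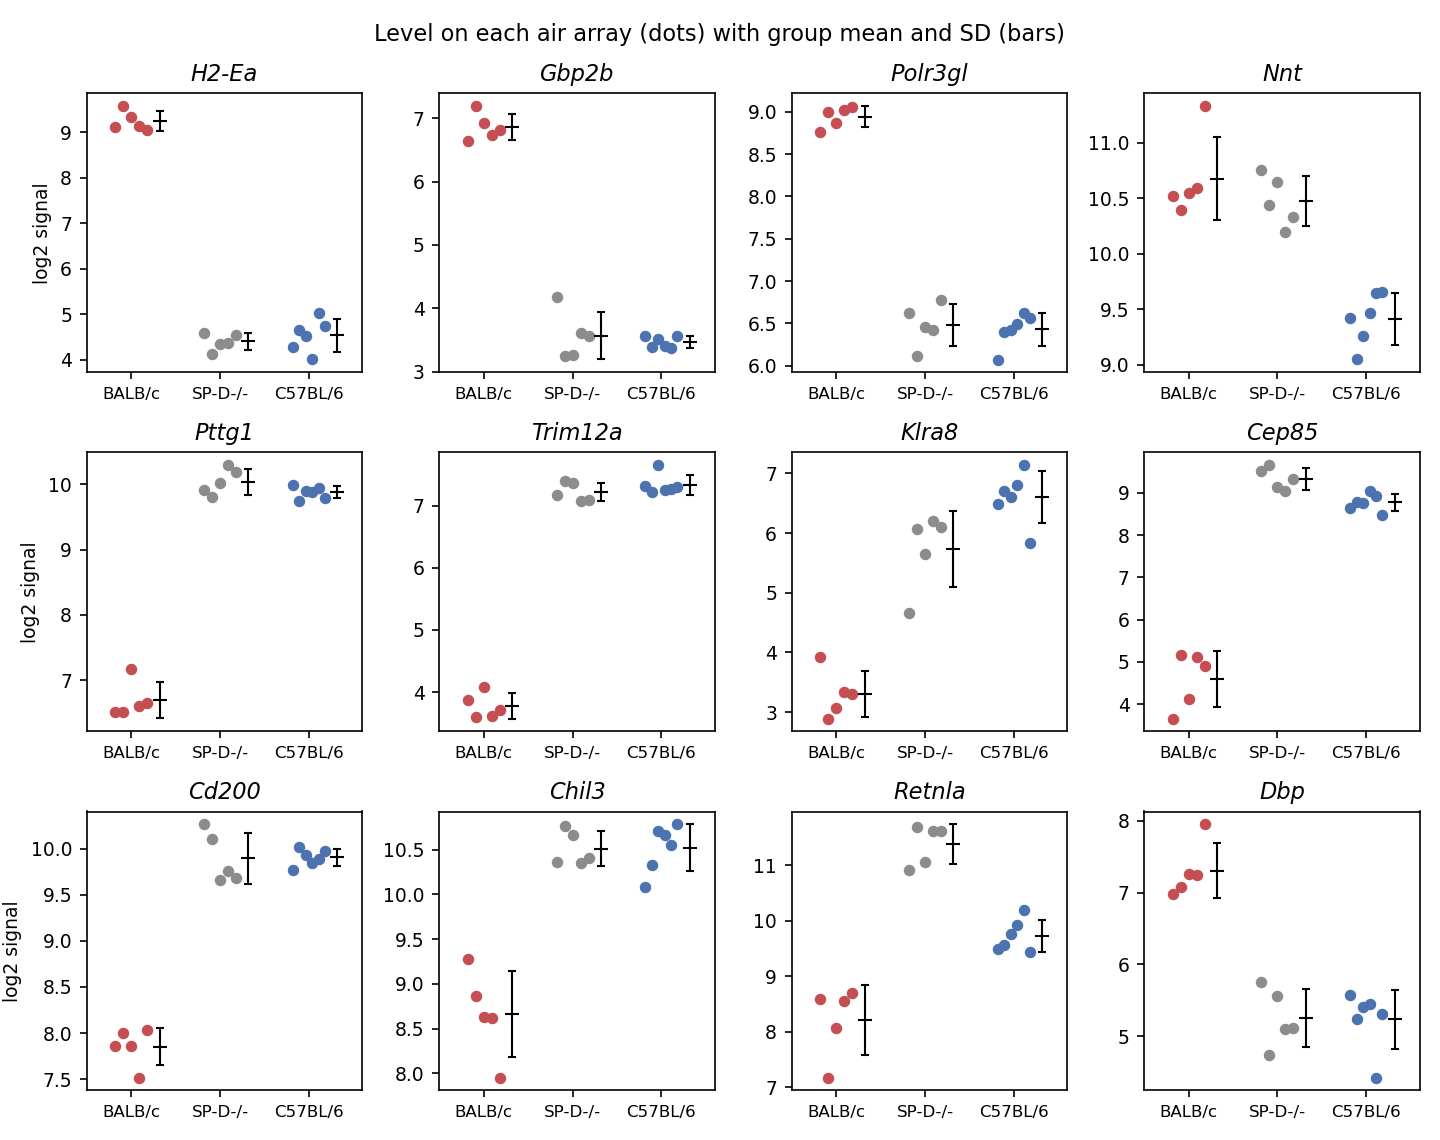
Log2 signal of 12 genes on each air array (dots) with the group mean and SD (bars), for BALB/c (red, n = 5), SP-D-/- (grey, n = 5) and C57BL/6 (blue, n = 6). In every panel the BALB/c arrays lie clear of the C57BL/6 arrays, and the SP-D-/- arrays lie clear of the BALB/c arrays except for Nnt, where SP-D-/- averaged 10.48 and BALB/c 10.68.

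Gbp2b, a guanylate-binding GTPase of cell-autonomous defence, was 6.65, 7.19, 6.93, 6.74 and 6.82 on the BALB/c arrays, against a lowest of 3.37, a median of 3.46 and a highest of 3.57 on the C57BL/6 arrays. It was 10.5-fold higher in BALB/c (3.39 ± 0.39, adjusted p = 1.26e-09), and all 6 C57BL/6 arrays lay under the filter level. Its relatives did not pass. Gbp2 (-0.41 ± 0.76) and Gbp3 (-0.36 ± 0.58) overlapped between strains, and Gbp7 (-0.48 ± 0.44) did not.

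The TRIM family includes restriction factors of retroviruses. In one TRIM cluster 4 of 6 measured genes were called lower in BALB/c, against 0.272% of all genes. The 6 run from the first to the last called gene, which raises that share. Trim12c had -0.07 (adjusted p = 0.9998) and Trim30a did not pass. Trim12a was 3.88, 3.61, 4.09, 3.62 and 3.71 on the BALB/c arrays, against a lowest of 7.23, a median of 7.28 and a highest of 7.65 on the C57BL/6 arrays, an 11.8-fold difference with no overlap (-3.56 ± 0.36, adjusted p = 2.4e-11). Its second probe set had -0.26 and was not called. Trim34a fell by 1.95 ± 0.26 in BALB/c (adjusted p = 1.69e-07) and Trim30d by 3.06 ± 0.60 (adjusted p = 0.00122). BALB/c replicate 1 had the highest Trim30d of its group at 6.25, and the other 4 ran from 3.66 to 4.73, against 6.79 to 8.36 in C57BL/6. Trim5 fell by 1.10 ± 0.28 (adjusted p = 0.0405), a call that was lost without any 1 of BALB/c replicates 2, 3, 4 and 6 or C57BL/6 replicates 1, 2, 3, 4, 5 and 6 (adjusted p = 0.0527 to 0.341). Trim30a had -0.82 ± 0.44 (adjusted p = 0.9998), and another of its probe sets, tested on its own, was lower at -1.66 ± 0.37 (adjusted p = 0.0076 over probe sets).

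The Ifi200 family encodes sensors of cytosolic DNA and their relatives. Of 6 members tested 1 fell, against 0.272% of all genes, and 0 rose (median -0.72). Ifi213 was 5.88, 4.41, 4.44, 4.90 and 4.44 on the BALB/c arrays, against a lowest of 7.15, a median of 7.33 and a highest of 8.08 on the C57BL/6 arrays, lower in BALB/c by 2.63 (a difference of -2.63 ± 0.48, adjusted p = 0.000316). BALB/c replicate 1 was highest of its group for Ifi213, as it was for Trim30d. Ifi209 did not pass, but 1 of its probe sets, tested on its own, was lower at -3.40 ± 0.47, with 3.23 in BALB/c and 6.62 in C57BL/6 (adjusted p = 4.29e-07 over probe sets). Ifi202b, known to be expressed in BALB/c and not in C57BL/6, averaged 5.49 ± 0.25 in BALB/c and 4.17 ± 0.39 in C57BL/6 with no overlap, and it missed the threshold (1.33 ± 0.36, adjusted p = 0.0827).

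None of 23 interferon-stimulated genes tested as a list, which holds Gbp2, Gbp3, Gbp7 and Trim30a but not the called genes above, passed. Their median was -0.36 and 21 of 23 were negative, among them the antiviral genes Rsad2 (-0.81 ± 0.44) and Oasl2 (-0.71 ± 0.55) and the GTPase genes Igtp (-0.85 ± 0.52) and Iigp1 (-0.84 ± 0.43). In 4 of the 23 every BALB/c array lay below every C57BL/6 array, against 2.22% of all genes.

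Klra8, which encodes Ly49H, the activating NK cell receptor for a protein of mouse cytomegalovirus, was 3.92, 2.89, 3.06, 3.34 and 3.31 on the BALB/c arrays, against a lowest of 5.83, a median of 6.66 and a highest of 7.14 on the C57BL/6 arrays. It was 9.81-fold lower in BALB/c (-3.29 ± 0.56, adjusted p = 8.51e-05), where all 5 arrays lay under the filter level. Of 15 NK and cytotoxic genes it was the 1 that passed, against 0.272% of all genes called lower. The median of the list was -0.35 and 13 of 15 were negative, including the receptor subunit Klrd1 (-1.25 ± 0.47) and the granule gene Nkg7 (-0.79 ± 0.29). In whole lung RNA, fewer cells of a type and less RNA per cell cannot be told apart. The strains also differ in the NK receptor genes themselves, and whether this contributes to the low Klra8 signal was not tested. Markers of B cells ran lower in BALB/c without passing: 10 of 12 were negative with a median of -0.52, led by Ms4a1, which encodes CD20 (-1.39 ± 0.68, 6.14 in BALB/c and 7.53 in C57BL/6). T cell genes did not lean either way, with 7 of 14 positive and a median of -0.08, and 0 passed.

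Cd200, a surface ligand that restrains myeloid cells through its receptor, was 7.86, 8.00, 7.86, 7.52 and 8.03 on the BALB/c arrays, against a lowest of 9.77, a median of 9.91 and a highest of 10.02 on the C57BL/6 arrays. It fell by 2.05 ± 0.30 in BALB/c (adjusted p = 1.6e-06), and it kept the call in every alternative tried. Chil3 and Retnla, genes of secreted proteins that rise further in type 2 inflammation, were lower in BALB/c as well. Chil3 was 9.28, 8.86, 8.63, 8.61 and 7.95 on the BALB/c arrays, against a lowest of 10.09, a median of 10.61 and a highest of 10.79 on the C57BL/6 arrays. Retnla was 8.59, 7.17, 8.07, 8.55 and 8.69 on the BALB/c arrays, against a lowest of 9.44, a median of 9.66 and a highest of 10.19 on the C57BL/6 arrays. Neither gene overlapped between strains, and the differences were -1.85 ± 0.39 (adjusted p = 0.00386) and -1.51 ± 0.29 (adjusted p = 0.00104).

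Chil3 was the 1 of 14 alveolar macrophage genes that passed, against 0.272% of all genes called lower. The list, which does not hold Retnla, had a median of -0.02, with Fabp5 at -0.02 ± 0.21, Pparg at -0.07 ± 0.28 and Siglecf at 0.09 ± 0.36. Of 25 genes of the type 2 response Chil3 and Retnla fell, against 0.272% of all genes, and 0 rose (median -0.06). The cytokine and receptor genes Il33 (-0.05 ± 0.60), Il13 (0.10 ± 0.26) and Il4ra (0.16 ± 0.19) lay near 0.

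In the airway epithelium, Bpifb1, a secreted protein of the BPI fold family, was 8.27, 6.79, 7.23, 8.18 and 8.18 on the BALB/c arrays, against a lowest of 9.57, a median of 10.07 and a highest of 10.38 on the C57BL/6 arrays. It was 4.9-fold lower in BALB/c (-2.29 ± 0.52, adjusted p = 0.0106), and the call was lost without BALB/c replicate 2 (adjusted p = 0.0703). It was the 1 of 12 club and secretory genes that passed, against 0.272% of all genes called lower. Their median was -0.44, with Scgb1a1 at -0.13 ± 0.22, Scgb3a2 at -0.61 ± 0.50 and the mucin Muc5b at -0.54 ± 0.51. Ciliated cell genes also had a median of -0.44, with 12 of 14 negative and 0 called.

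No gene on the alveolar epithelial lists was called. None of 14 alveolar type 2 genes passed (median -0.09, range -0.58 to 0.14), with Sftpc at -0.02 ± 0.22 and the lipid transporter Abca3 at 0.11 ± 0.29. None of 10 type 1 genes passed either (median 0.15, range -0.11 to 0.43), with the receptor gene Ager at 0.34 ± 0.27. The standard errors leave room for differences of this order, so these values do not show that the strains are alike.

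Genes of the circadian clock were called in both directions. The labels give no hour of collection, so strain and hour cannot be told apart for these genes. In the clock, BMAL1 (Arntl) with CLOCK or its relative NPAS2 switches on E-box genes, among them the PAR bZIP factor genes Dbp and Tef and the Per repressors, and the REV-ERB proteins repress Arntl and Npas2. Of 16 clock genes 2 rose in BALB/c and 1 fell, against 0.239% and 0.272% of all genes, with a median of 0.41. Dbp was 6.99, 7.08, 7.26, 7.25 and 7.96 on the BALB/c arrays, against a lowest of 4.43, a median of 5.36 and a highest of 5.57 on the C57BL/6 arrays. The groups did not overlap, and Dbp was 4.2-fold higher in BALB/c (2.07 ± 0.34, adjusted p = 3.5e-05).

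Tef was 9.02, 9.08, 8.97, 9.44 and 9.65 on the BALB/c arrays, against a lowest of 8.16, a median of 8.33 and a highest of 8.59 on the C57BL/6 arrays, higher in BALB/c by 0.87 ± 0.20 (adjusted p = 0.0129). Npas2 was 6.01, 5.55, 5.79, 5.81 and 5.93 on the BALB/c arrays, against a lowest of 6.93, a median of 7.16 and a highest of 7.53 on the C57BL/6 arrays, lower in BALB/c at -1.38 ± 0.34 (adjusted p = 0.0237). Both were called narrowly: the call of Tef was lost without any 1 of BALB/c replicates 4 and 6 (adjusted p = 0.0652 to 0.105), and that of Npas2 without any 1 of BALB/c replicates 2, 3, 4 and 6 or C57BL/6 replicates 2, 3 and 5 (adjusted p = 0.0546 to 0.0861). Arntl averaged 5.46 ± 0.38 in BALB/c and 6.93 ± 0.31 in C57BL/6, Per2 6.57 ± 0.26 in BALB/c and 4.94 ± 0.97 in C57BL/6 and Nr1d2, which encodes REV-ERB beta, 9.40 ± 0.19 in BALB/c and 8.24 ± 0.15 in C57BL/6. None of these 3 overlapped between strains, and none passed (-1.47 ± 0.39, 1.63 ± 0.59 and 1.17 ± 0.50, adjusted p = 0.0565, 0.522 and 0.9998). Arntl lay at the threshold: its probe set was called lower when the adjustment ran over probe sets (adjusted p = 0.049). Clock (-0.19), Cry1 (0.09) and Ciart (0.01) overlapped.

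The promoter windows of 4 of these genes are shown because the clock is known to act on such genes through promoter and other regulatory elements. Each is RefSeq sequence of GRCm38.p6, a C57BL/6J assembly, on the plus strand, from 250 bases before to 50 after an annotated start. Capitals mark the E-box CACGTG or the half-site AGGTCA of nuclear receptors such as the RORs and REV-ERBs, searched on both strands with no overlap between them. Dbp lies at chr7:45704997-45705296, Tef at chr15:81802423-81802722 and chr15:81811164-81811463 for its 2 starts, Npas2 at chr1:39194022-39194321 and Arntl, from its downstream start, at chr7:113207261-113207560.
Dbp: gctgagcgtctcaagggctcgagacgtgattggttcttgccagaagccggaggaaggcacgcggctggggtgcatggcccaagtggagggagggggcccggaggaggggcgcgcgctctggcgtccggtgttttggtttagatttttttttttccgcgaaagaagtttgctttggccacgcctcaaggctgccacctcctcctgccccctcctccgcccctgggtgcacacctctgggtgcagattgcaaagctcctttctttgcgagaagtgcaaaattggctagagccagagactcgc
Tef, start 1: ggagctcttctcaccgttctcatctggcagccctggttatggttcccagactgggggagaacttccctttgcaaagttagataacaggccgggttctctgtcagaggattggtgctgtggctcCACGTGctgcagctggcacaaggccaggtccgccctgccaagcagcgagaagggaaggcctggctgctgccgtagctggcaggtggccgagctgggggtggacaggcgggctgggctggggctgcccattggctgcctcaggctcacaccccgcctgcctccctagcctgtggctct
Tef, start 2: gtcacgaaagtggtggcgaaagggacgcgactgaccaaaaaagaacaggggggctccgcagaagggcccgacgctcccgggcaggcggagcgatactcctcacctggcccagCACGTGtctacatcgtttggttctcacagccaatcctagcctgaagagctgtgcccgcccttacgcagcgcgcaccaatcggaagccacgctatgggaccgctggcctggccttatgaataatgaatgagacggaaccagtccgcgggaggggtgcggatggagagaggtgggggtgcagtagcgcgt
Npas2: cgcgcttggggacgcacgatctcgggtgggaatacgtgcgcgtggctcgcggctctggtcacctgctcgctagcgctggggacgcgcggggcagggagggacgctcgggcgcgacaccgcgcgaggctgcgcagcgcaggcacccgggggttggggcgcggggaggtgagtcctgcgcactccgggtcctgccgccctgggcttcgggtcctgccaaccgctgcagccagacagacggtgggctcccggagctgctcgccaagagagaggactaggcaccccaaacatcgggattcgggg
Arntl: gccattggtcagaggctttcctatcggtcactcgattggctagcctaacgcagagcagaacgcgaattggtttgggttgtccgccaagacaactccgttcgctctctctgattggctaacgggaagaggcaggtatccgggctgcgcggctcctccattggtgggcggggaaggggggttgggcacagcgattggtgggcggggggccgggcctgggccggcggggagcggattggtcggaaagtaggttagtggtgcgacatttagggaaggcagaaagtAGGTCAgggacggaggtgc

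Both windows of Tef held 1 E-box, as did 7.15% of 32851 windows of this length over all genes. The downstream window of Arntl held 1 half-site, as did 16.3% of all windows. The windows of Dbp and Npas2 and the upstream window of Arntl held neither, which says only that these letters are not in them. A match is a description of the sequence and not a binding site, and the sequence of BALB/c was not analysed here.

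Genes that respond to glucocorticoids, which share Per1 with the clock list, were all on the higher side: 11 of 11 were positive with a median of 0.42. None passed. Fkbp5, a chaperone of the glucocorticoid receptor, was nearest (1.00 ± 0.27, adjusted p = 0.0655), and Zbtb16, a transcription factor gene, had the largest value (1.93 ± 0.62, adjusted p = 0.268). The list mean was 8.66, 8.27, 7.36, 7.87 and 7.78 on the BALB/c arrays, against 7.31 to 7.93 on the C57BL/6 arrays, so the groups overlapped.

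Nnt, the transhydrogenase of the inner mitochondrial membrane that makes NADPH, was 10.52, 10.39, 10.55, 10.60 and 11.33 on the BALB/c arrays, against a lowest of 9.05, a median of 9.44 and a highest of 9.66 on the C57BL/6 arrays. The groups did not overlap (1.26 ± 0.25, adjusted p = 0.00122), and C57BL/6 arrays still read at least 9.05. Alad, which encodes the second enzyme of haem synthesis, was 3.41-fold higher in BALB/c (1.77 ± 0.35, adjusted p = 0.00148), with 8.96 to 9.07 in BALB/c and 6.60 to 7.67 in C57BL/6. Its other probe set gave 1.54 (adjusted p = 0.003 over probe sets). Sphk2, a sphingosine kinase, rose by 1.63 ± 0.22 (adjusted p = 3.14e-07) and Fbp2, the muscle form of fructose bisphosphatase, by 2.62 ± 0.40 (adjusted p = 8.41e-06).

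On the lower side, Acoxl, an acyl-CoA oxidase-like gene, averaged 4.49 ± 0.50 in BALB/c and 7.30 ± 0.38 in C57BL/6 (-2.81 ± 0.50, adjusted p = 0.000158). Mocs1, of molybdenum cofactor synthesis, had -1.90 ± 0.32 (adjusted p = 7.52e-05), with 3.603 in BALB/c and 5.498 in C57BL/6. Pdk1, a kinase that restrains pyruvate dehydrogenase, fell by 1.60 ± 0.36 (adjusted p = 0.00793), and its call was lost without BALB/c replicate 1 (adjusted p = 0.0858). Genes of cholesterol and fatty acid synthesis had 14 of 15 negative differences with a median of -0.33 and 0 calls.

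Pttg1 had the lowest p-value of all genes. It encodes securin, the inhibitor of separase in mitosis, and was 6.50, 6.51, 7.17, 6.60 and 6.64 on the BALB/c arrays, against a lowest of 9.75, a median of 9.89 and a highest of 9.997 on the C57BL/6 arrays. It was 9.14-fold lower in BALB/c (-3.19 ± 0.31, adjusted p = 5.04e-12), and both of its other probe sets were called lower too, by 1.79 and 2.94 (differences of -1.79 and -2.94). None of 26 cell cycle genes passed (median 0.04).

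Cep85, a centrosomal protein gene, had the largest fall. It was 3.66, 5.16, 4.11, 5.11 and 4.91 on the BALB/c arrays, against a lowest of 8.48, a median of 8.78 and a highest of 9.05 on the C57BL/6 arrays, an 18.2-fold difference with no overlap (-4.19 ± 0.69, adjusted p = 3.54e-05). Its second probe set had -0.35 and was not called. Polr3gl, a subunit of RNA polymerase III, was 8.76, 9.002, 8.86, 9.02 and 9.06 on the BALB/c arrays, against a lowest of 6.07, a median of 6.46 and a highest of 6.62 on the C57BL/6 arrays. It was 5.71-fold higher in BALB/c (2.51 ± 0.28, adjusted p = 9.85e-10), and the groups did not overlap. Tdg, a DNA glycosylase of base repair and demethylation, fell by 1.32 ± 0.21 (adjusted p = 1.38e-05), at 8.43 in BALB/c and 9.75 in C57BL/6.

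Baiap2l1, a membrane-bending adaptor of actin, was 5.27-fold higher in BALB/c (2.40 ± 0.38, adjusted p = 1.38e-05), with 8.61 to 9.10 in BALB/c and 6.41 to 6.77 in C57BL/6, and its second probe set gave 2.92. Tmem87a, a membrane protein gene, rose by 2.43 ± 0.37 (adjusted p = 6.15e-06). Cap1, which recycles actin monomers, rose by 2.15 ± 0.52 (adjusted p = 0.0215), but its call was lost without any 1 of BALB/c replicates 3, 4 and 6 or C57BL/6 replicate 5 (adjusted p = 0.0551 to 0.0776). Dlc1 rose by 1.82 ± 0.43 (adjusted p = 0.0181), and this was lost without any 1 of BALB/c replicates 2 and 4 or C57BL/6 replicates 2 and 4 (adjusted p = 0.052 to 0.148).

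Procr, the endothelial receptor of protein C, rose by 1.67 ± 0.39 (adjusted p = 0.0126), a call lost without C57BL/6 replicate 5 (adjusted p = 0.0615), and none of 20 endothelial identity genes passed (median -0.02). Vegfd, a growth factor of lymphatic vessels, averaged 5.25 ± 0.13 in BALB/c and 7.38 ± 0.31 in C57BL/6 (-2.13 ± 0.39, adjusted p = 0.000258). Sox11, a transcription factor gene best known from the developing nervous system, was 8.10, 8.18, 8.39, 8.43 and 8.26 on the BALB/c arrays, against a lowest of 10.21, a median of 10.54 and a highest of 11.07 on the C57BL/6 arrays. It fell by 2.30 ± 0.38 (adjusted p = 4.2e-05), and 2 of its other 5 probe sets were called lower. Col4a6, a chain of basement membrane collagen, had -2.18 ± 0.37 (adjusted p = 8.51e-05), while none of 23 stroma, matrix and smooth muscle genes passed.

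Serpina1b, a member of the alpha-1-antitrypsin family of protease inhibitors, was 6.56, 6.57, 6.86, 6.84 and 6.95 on the BALB/c arrays, against a lowest of 2.73, a median of 2.91 and a highest of 4.78 on the C57BL/6 arrays. It was 11.6-fold higher in BALB/c (3.54 ± 0.67, adjusted p = 0.000534), and a second probe set gave 3.35. The family is made of near-identical copies, so its members cannot be told apart with certainty: Serpina1c and Serpina1d had 1.08 ± 0.79 and 1.16 ± 0.46 and did not pass. The level also varied within SP-D-/-, at 8.36 and 9.09 on replicates 3 and 4 and 2.75 to 3.41 on the other 3 arrays. Of 13 serpin genes tested it was the 1 that passed (median 0.20), against 0.239% of all genes called higher.

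A group of muscle genes was called higher in BALB/c on the arrays that carried the skeletal muscle signal. Sypl2 and Dhrs7c, proteins of the muscle membrane system, and Tmod4, a cap of muscle thin filaments, overlapped between strains although they passed. Tmod4 was 5.07, 5.55, 6.22, 6.09 and 8.38 on the BALB/c arrays, against a lowest of 4.45, a median of 4.58 and a highest of 5.78 on the C57BL/6 arrays, with the highest C57BL/6 value on replicate 1. BALB/c replicate 6 and C57BL/6 replicate 1 had both the highest Tmod4 and the highest muscle signal of their groups. The 12 genes of the skeletal muscle list were all positive, from 1.51 to 4.27 (median 2.33), and none passed, with Acta1, skeletal alpha-actin, at 4.27 ± 1.21 (adjusted p = 0.108). Tested on their own, a probe set of Ckm (1.10 ± 0.28) and one of Myh4 (1.21 ± 0.32) were called higher (adjusted p = 0.0274 and 0.0484 over probe sets).

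The mean of the skeletal muscle list did not separate the strains (2.59, exact two-sided permutation p = 0.0887 over 462 splits, adjusted p = 0.266 over the 3 array measures). With this mean as a covariate, 55 genes were called and 54 of the 77 remained. Sypl2 then had 0.57 (adjusted p = 0.501), Tmod4 0.71 (adjusted p = 0.576) and Dhrs7c 0.71 (adjusted p = 0.9999). The calls of Procr, Tef, H2-Ob, H2-Q4 and Trim5 were lost as well (adjusted p = 0.124, 0.103, 0.188, 0.134 and 0.123). On leaving out 1 array, the call of Tmod4 was lost without BALB/c replicate 6 (adjusted p = 0.373), that of Sypl2 without any 1 of BALB/c replicates 3, 4 and 6 or C57BL/6 replicate 4 (adjusted p = 0.0524 to 0.321) and that of Dhrs7c without any 1 of BALB/c replicates 4 and 6 or C57BL/6 replicates 2, 3, 4, 5 and 6 (adjusted p = 0.0606 to 0.862).

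Fbp2 is a muscle enzyme too, but its pattern differed. It was 6.72, 7.49, 7.504, 6.82 and 6.22 on the BALB/c arrays, against a lowest of 3.82, a median of 4.38 and a highest of 4.76 on the C57BL/6 arrays, and BALB/c replicate 2, which had little muscle signal, read 7.49. With the covariate Fbp2 still differed by 2.46 (adjusted p = 0.000178).

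**Figure D3:**
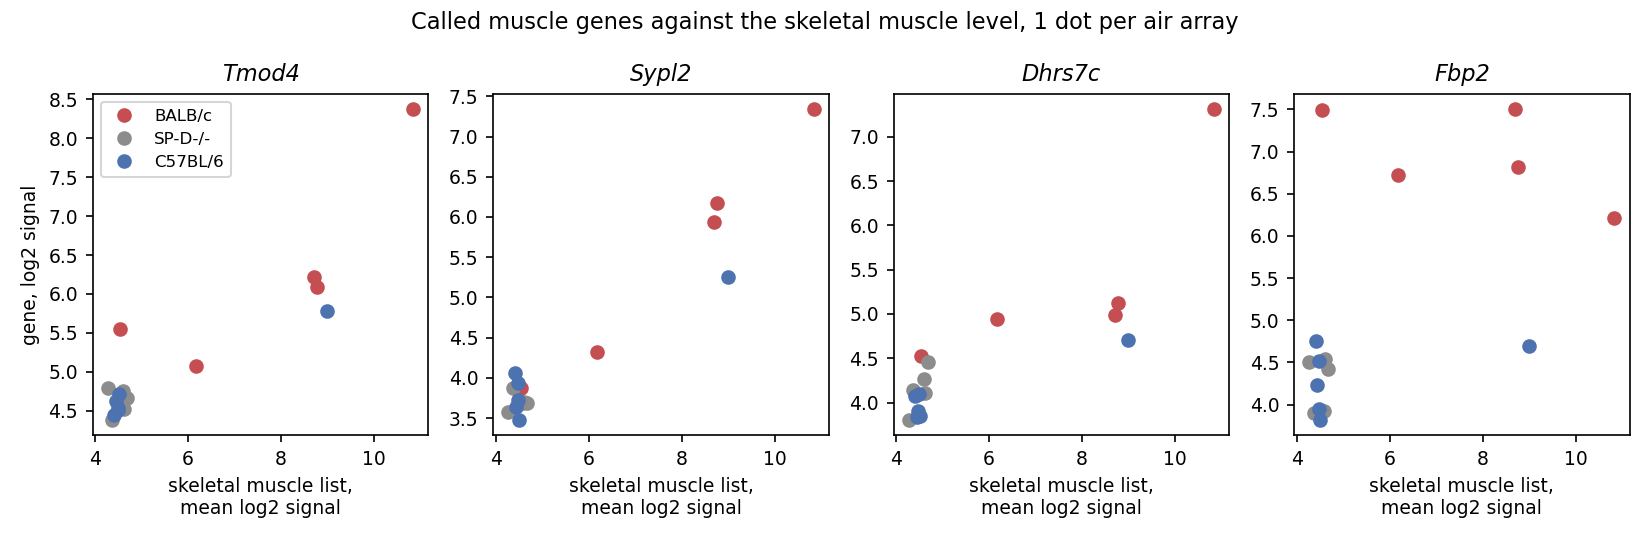
Log2 signal of Tmod4, Sypl2, Dhrs7c and Fbp2 on each air array (vertical axes) against the mean log2 signal of 12 skeletal muscle genes on that array (horizontal axes), for BALB/c (red, n = 5), SP-D-/- (grey, n = 5) and C57BL/6 (blue, n = 6). Tmod4, Sypl2 and Dhrs7c are highest on BALB/c replicate 6, where the muscle mean was 10.84, and Fbp2 is high on all 5 BALB/c arrays.

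Of 35 gene lists, 9 held a called gene and 26 held none. Lists without a call included neutrophil genes (12 tested, median -0.12), chemokines and inflammatory cytokines (36, median -0.07), pattern recognition receptors (28, median -0.11), NRF2 antioxidant genes (16, median -0.06) and xenobiotic metabolism (29, median -0.08). Ahr, the receptor of dioxin-like ligands, whose alleles are known to differ between the strains, had -0.12 ± 0.51 (adjusted p = 0.9998). Among stroma genes Mfap4, a microfibril protein, averaged 11.02 ± 0.30 in BALB/c and 9.79 ± 0.23 in C57BL/6 with no overlap and did not pass (adjusted p = 0.9998).

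**Figure D4:**
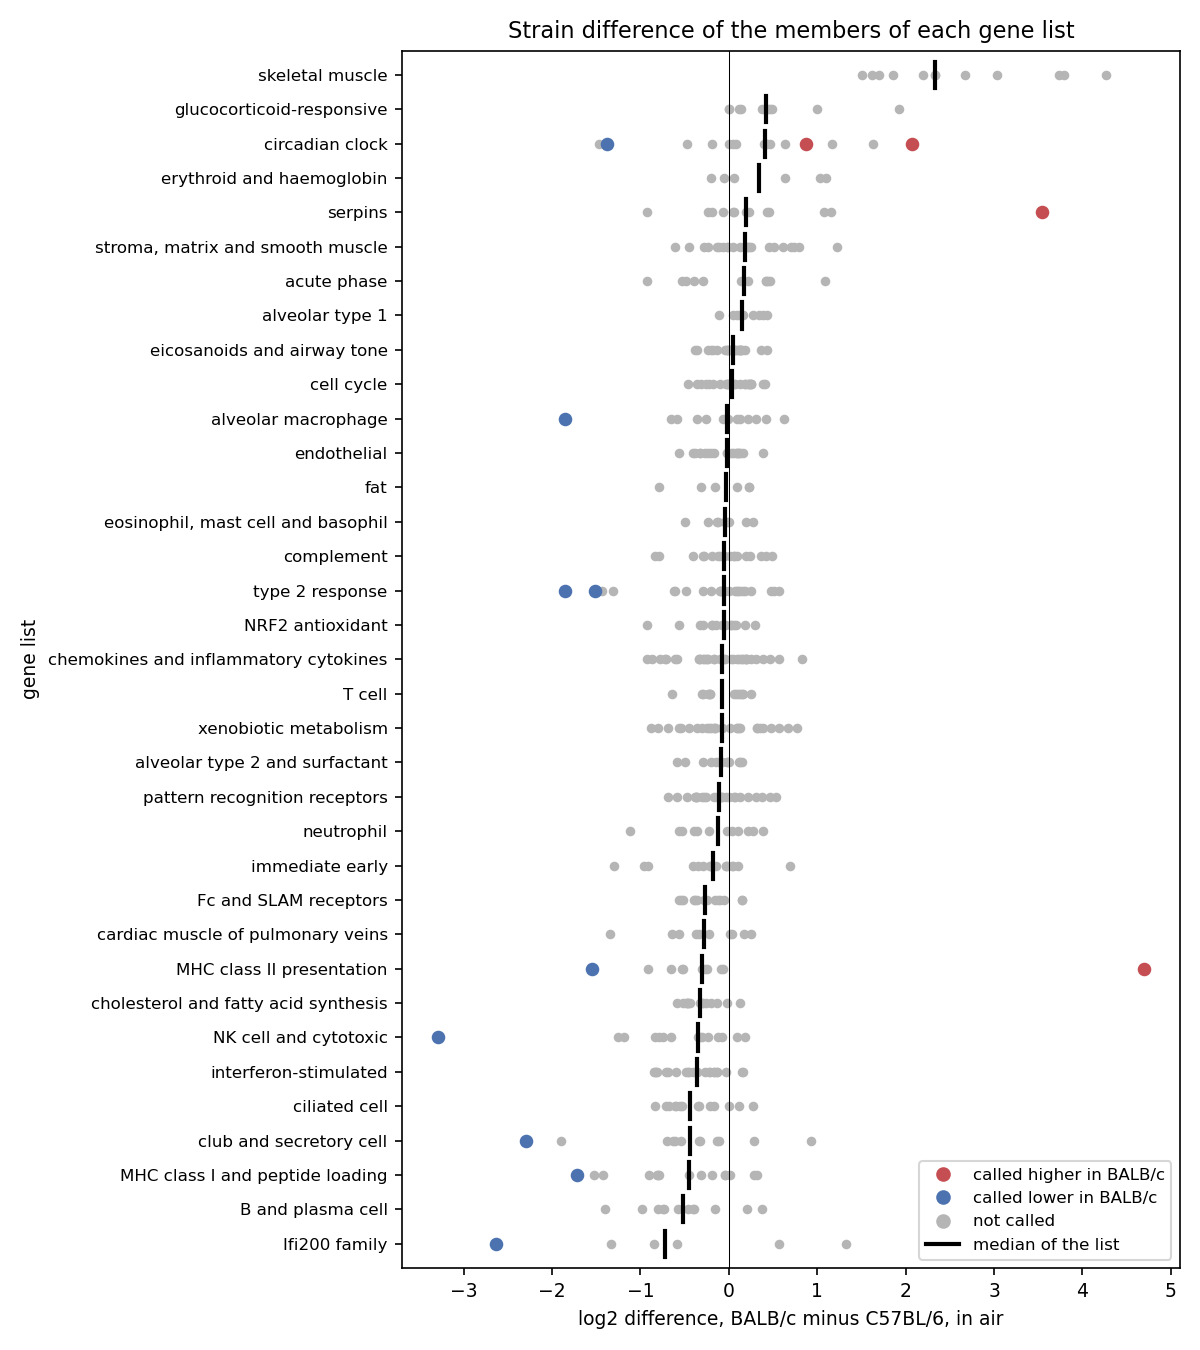
Difference in log2 signal, BALB/c minus C57BL/6 in air, of each tested member (dots) of 35 gene lists, with the list median as a black bar. The skeletal muscle list lies farthest to the higher side at a median of 2.33, and the Ifi200 family farthest to the lower side at -0.72.

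Other called genes belonged to none of these groups. Nxpe4, of a family of neurexophilin-like genes, was 3.65, 3.71, 4.05, 3.51 and 4.13 on the BALB/c arrays, against a lowest of 6.77, a median of 7.14 and a highest of 7.80 on the C57BL/6 arrays, 10.7-fold lower in BALB/c (-3.42 ± 0.47, adjusted p = 6.08e-07). Ankrd63, an ankyrin repeat gene, fell by 2.67 ± 0.36 (adjusted p = 3.16e-07), with 4.13 in BALB/c and 6.80 in C57BL/6. Padi2, a peptidylarginine deiminase, fell by 1.60 ± 0.32 (adjusted p = 0.00138), and Irx3, a homeobox gene, rose by 1.08 ± 0.25 (adjusted p = 0.0106), a call lost without BALB/c replicate 6 (adjusted p = 0.0927). Tnn, a tenascin of the matrix, rose by 1.30 ± 0.25 (adjusted p = 0.000826).

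Some called genes were neighbours. In the RefSeq order of genes 14 of the 77 fell into 5 blocks with no more than 10 protein-coding genes between one called gene and the next. How many of 77 genes taken at random would do so was not tested. Directions were shared in the TRIM block (Trim34a, Trim5, Trim12a and Trim30d, all lower), in the block of Dbp, Sphk2 and Kcnj14 (all higher) and for Nxpe4 and Nxpe2 (both lower). They were mixed for H2-Ob and H2-Ea and for Pak6, Ankrd63 and Disp2. Dbp and Sphk2 are next to each other, and Kcnj14, a potassium channel gene, had 1.35 ± 0.27 (adjusted p = 0.00147).

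Other probe sets of the same genes gave a mixed picture. Probe sequences were not compared with the BALB/c genome. Whether sequence differences under the probes contribute to the differences in signal was therefore not tested. Over all 36800 probe sets tested, 239 were called (0.649%), 87 higher and 152 lower. Of the 77 genes 32 had another tested probe set, and for 9 of them one was called in the same direction, while 10 had one of opposite sign. For Fam189a2 one was called in the opposite direction at -1.53 (adjusted p = 0.00265 over probe sets), as was one of Pdxdc1. For 14 genes all others differed by under 0.5. The probe sets of Pdxdc1 opposed each other: the one that stood for the gene fell by 2.74 ± 0.51, while another was higher by 4.16 ± 0.51, at 8.23 in BALB/c and 4.07 in C57BL/6. With the mean of each gene's probe sets in place of 1 probe set, Sphk2 had 0.94 (adjusted p = 0.40), Nnt 1.30 (adjusted p = 0.0563), Tef 0.47 (adjusted p = 0.113), Npas2 -0.68 (adjusted p = 0.384), Dlc1 0.78 (adjusted p = 0.175), Bpifb1 -2.46 (adjusted p = 0.052) and Pdk1 -0.85 (adjusted p = 0.9997), none of them called. Trim12a (-1.91), Cep85 (-2.27), Trim30d (-1.76), Ifi213 (-1.65), Sox11 (-1.46) and Tdg (-0.77) were smaller by over 1.5 times with that mean and were still called.

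The strain difference of many genes was seen again under the 5 other exposures, which share no arrays with air. They do share with air the estimate of each gene's spread, so the calls are not fully independent. Of the 77 genes 33 were called in the same direction 168 h after Af with air (42.9%, against 0.597% of all genes) and 29 at 96 h with ozone (37.7%, against 6.26%). After ozone alone, with 2 BALB/c arrays, 19 were called (24.7%, against 0.146%), and 15 each at 24 h (19.5%, against 0.385%) and at 168 h with ozone (19.5%, against 0.139%). None was called in the opposite direction, and 58 kept their sign in all 5. Ankrd63, Cep85, Gbp2b, H2-Ea, Pttg1 and Trim12a were called under all 5, and 28 genes under none. How many of all genes kept their sign or were called under all 5 was not counted.

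H2-Ea ran from 2.66 to 4.44 above C57BL/6 under these exposures and Cep85 from -5.61 to -3.09. Klra8 was called lower in 3 of the 5, and at ozone it averaged 3.50 in BALB/c and 5.99 in C57BL/6 without passing (adjusted p = 0.354). Chil3 had -1.89 after ozone, and 0.56, -0.10 and 0.03 at 96 h with ozone, 168 h with air and 168 h with ozone, with no call under any of the 5. In 5 challenged arrays, none in air, the strain markers or Sftpd went against the label: BALB/c replicates 4 and 5 at 24 h, BALB/c replicate 6 at 168 h with ozone, and replicate 1 of C57BL/6 and of SP-D-/- at 96 h. Without them the counts were 28 after ozone, 20 at 24 h, 39 at 96 h, 37 at 168 h with air and 26 at 168 h with ozone. The groups after ozone alone and at 168 h with air held none of the 5. Their counts rest on the same arrays as before and changed only with the shared estimate of spread. The markers used to doubt the 5 arrays were themselves genes called in air, so the counts without them are not independent of that choice.

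**Figure D5:**
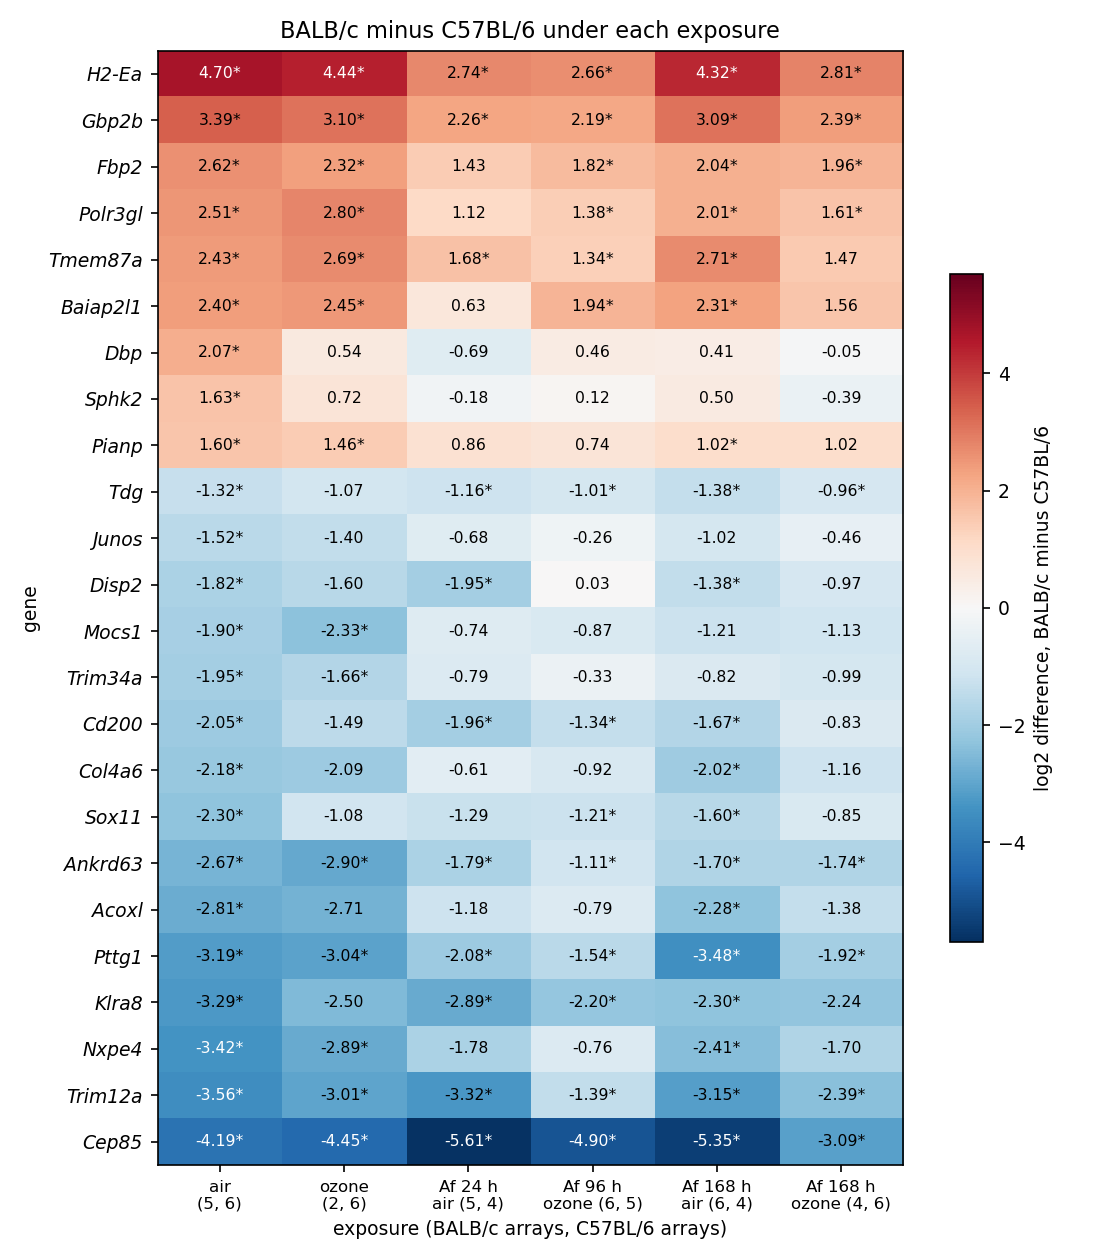
Difference in log2 signal, BALB/c minus C57BL/6, of the 24 genes with the lowest adjusted p in air (down the page) under each of 6 exposures (across), with the number of BALB/c and C57BL/6 arrays under each exposure and a star where the adjusted p was under 0.05. H2-Ea is starred in every column, and Dbp, Sphk2 and Junos in air only.

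For 3 genes the strain difference in air differed from the mean of the other 5 exposures (0.0199% of 15065 genes, with 206 at an unadjusted p under 0.05). The 206 are also under 1 in 20 of the genes. Sphk2 was higher in BALB/c by 1.63 in air and by 0.15 on average elsewhere (difference 1.47 ± 0.25, adjusted p = 0.000956). Dbp was higher by 2.07 in air and 0.13 elsewhere (1.94 ± 0.38, adjusted p = 0.0166). Retnla was lower in air, at -1.51, and 0.07 elsewhere (-1.58 ± 0.33, adjusted p = 0.0397).

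Retnla averaged 11.75 to 12.69 in BALB/c and 11.44 to 12.75 in C57BL/6 over those 5 exposures, above its air levels in both strains. Dbp averaged 4.38 to 5.60 in BALB/c and 3.97 to 5.82 in C57BL/6, so that BALB/c in air stood above all of them. The hour of collection is not given and was not tested. With the muscle mean as a covariate none of the 3 passed (adjusted p = 0.0536 for Sphk2 and for Retnla and 0.131 for Dbp). Without C57BL/6 replicate 5 only 1 gene, Sphk2, was called. The call of Dbp was lost without that array (adjusted p = 0.136) or BALB/c replicate 6 (adjusted p = 0.133). That of Retnla was lost without any 1 of BALB/c replicates 2 and 3 or C57BL/6 replicates 2, 3, 4 and 5 (adjusted p up to 0.287).

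SP-D-/- lungs in air lay nearer to C57BL/6 than to BALB/c for 74 of the 77 genes. H2-Ea averaged 4.40 in SP-D-/-, Pttg1 10.04 and Trim12a 7.22. The other 3 genes were Serpina1b, Nnt and Tmem181b-ps. For Serpina1b this holds only for the SP-D-/- mean of 5.28, since single SP-D-/- arrays read 2.75 to 3.41 or 8.36 and 9.09. Nnt averaged 10.48 in SP-D-/-, and Retnla stood above both strains there at 11.37.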

How the data were processed

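RNA of mouse lungs was measured on 89 arrays in 18 groups. The deposited values are log2 signals per probe set, 1.86 to 13.54 with an array median of 4.90, and they were used as the authors deposited them. The software behind them is not given in the sources used here. Of 45141 probe sets 28898 carried 1 gene symbol in the platform annotation, 551 several and 15692 none. Each of 17097 genes was represented by its brightest probe set, averaged over all arrays. A gene was tested if it exceeded 4.45, the 40th percentile, on at least 4 arrays, which left 15065.

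One linear model with a mean for each group was fitted with limma 3.58.1 (R 4.3.3, lmFit and eBayes), with Benjamini-Hochberg adjustment over all genes tested and a threshold of 0.05. Single measures of an array were compared by an exact permutation test. The script was tested on simulated data. Named genes were the 12 largest rises and falls in air, up to 3 called members of each list, a list of textbook strain alleles and Sftpd; other genes named were chosen after their values were seen. Members and gene lists were chosen with earlier results of these data known. Alternatives were the air arrays alone, cyclic loess, the mean of a gene's probe sets, no filter, control and actin covariates, a replicate block, a trended robust prior, a threshold of 0.01, leaving out the doubted arrays and leaving out each air array. The skeletal muscle covariate and the comparison of air with the other exposures were added after seeing the data. Figures were drawn with matplotlib 3.10.9.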

Additional observations from a re-analysis of the deposited data

Results flagged for a closer look

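On some air arrays a called gene stood far from the other arrays of its group. This was so in 20 of 160 tests of a gene in a group, and chance gives about 1 in 20. The 160 include tests of Ifi202b, Ahr and Sftpd, which were not called in air. The tests share the same arrays and are not independent, so 1 in 20 is only a guide. In BALB/c these were Dbp (7.96), Dhrs7c (7.31), Nnt (11.33) and Mocs1 (3.32) on replicate 6, Ccdc62 (4.91) and Nxpe2 (4.13) on replicate 2, Snhg11 (3.74) on replicate 1 and Pttg1 (7.17) on replicate 3. In C57BL/6 replicate 5 they were Cap1 (6.13), Dbp (4.43), Sphk2 (5.56), Cntnap2 (5.10), Nxpe2 (6.00) and B3galt6 (4.55). In C57BL/6 replicate 1 they were Sypl2 (5.25), Tmod4 (5.78) and Dhrs7c (4.70). Serpina1b (4.78) and Trim12a (7.65) on C57BL/6 replicate 3 and Baiap2l1 (6.77) on C57BL/6 replicate 2 complete the set.

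The difference between the strains in air was unlike that under the other 5 exposures for 3 genes, by a test of that contrast in limma: Dbp (1.94), Sphk2 (1.47) and Retnla (-1.58).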

How the results depend on the processing

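Of the 77 genes called in air, 39 kept their call under every alternative in which they were tested, 15 higher and 24 lower. These were 21 alternatives, or 20 for Nptx1, since the mean of probe sets was tested for 74 of the 77. Another 37 lost it under at least 1, and Pdxdc1 reversed to 0.19 with the mean of its probe sets. The air arrays alone gave 437 calls (161 higher, 276 lower). The control covariate gave 117, with 66 lower, the muscle covariate 23 higher, and a threshold of 0.01 gave 45, with 17 higher. Leaving out 1 air array gave 54 to 78 calls, 24 to 43 higher and 30 to 39 lower, with 52 to 68 of the 77 among them; 54, 24, 30 and 52 came without BALB/c replicate 6. Cyclic loess gave 80 and shifted the median of all genes by -0.0063.

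Without the 5 doubted arrays, 37 genes were called between strains after ozone, 38 at 24 h, 2232 at 96 h and 47 at 168 h with ozone, where 26 air-called genes were called. With the control covariate these were 45 after ozone (30 of them air-called), 137 at 24 h and 33 at 168 h with ozone. The genes whose difference in air was unlike that elsewhere numbered 0 with the muscle covariate (111 at an unadjusted p under 0.05 in limma) and 1 to 4 on leaving out 1 array. No doubted array was in the groups after ozone alone, so the 37 there reflects only a changed estimate of the shared spread. The cause of the other shifts was not tested.

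With the replicate number as a block, 63 genes were called (27 higher, 36 lower), 60 of them among the 77. Samples of the same number did not deviate together (correlations of -0.49 to 0.27 over 5 pairs), so the numbers were not taken as pairs.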

Other observations

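When every probe set was tested on its own, 58 probe sets of 51 genes that had not been called passed, 25 higher and 33 lower in BALB/c. All 3 probe sets of Lipa, the lysosomal acid lipase, were called higher over probe sets, by 1.78 ± 0.38, 1.52 ± 0.30 and 0.83 ± 0.22. For Spon1, a matrix protein gene, 2 probe sets were higher by 3.88 ± 0.51 and 2.71 ± 0.59, while the one standing for the gene had -0.24 ± 0.45. For Kif5b, a kinesin heavy chain, 1 probe set averaged 4.84 in BALB/c and 8.26 in C57BL/6, and the other 4 differed by 0.01 to 0.25. These genes were chosen after their values were seen.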
